A study of Mus musculus with 6 samples.

Results

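The mouse enzymes that write and erase histone methylation, the TET dioxygenases and the ATP-dependent nucleosome remodelers were examined in tumor endothelial cells (TECs) with and without forced Notch signaling. Members were all rows of the deposited expression table whose symbol began with Kmt2 or Smarc, began with Setd, Kdm, Arid or Chd and a digit, or was Tet1, Tet2 or Tet3, and the Y-linked Kdm5d was left out. The rule took 62 of the 23473 rows with a RefSeq symbol, namely 9 Setd, 16 Kdm, 3 Tet, 14 Smarc, 10 Arid and 10 Chd rows, and 56 of the 62 had a mean RPKM (reads scaled to row length and to the reads of the library) of at least 1 and were tested. No row carried a Kmt2 symbol, because the table lists those genes under older names. Mll1 (now Kmt2a), Wbp7 (Kmt2b), Mll3 (Kmt2c), Mll2 (Kmt2d) and Mll5 (Kmt2e), together with Jhdm1d (Kdm7a), were therefore described beside the members and counted apart from them.

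LLC, a mouse Lewis lung carcinoma line, was grown in C57BL/6 mice labelled as 8 weeks old, and the cells that bound CD31 beads were sequenced as bulk RNA from 3 Ctrl and 3 NICeCA tumors. NICeCA mice carried a tamoxifen-inducible Cre under the Cdh5 promoter and a Rosa26 allele in which Cre removes a stop cassette before the Notch1 intracellular domain (NIC), so the activation was restricted to cells that use this promoter. Male mice were given daily tamoxifen before the subcutaneous inoculation of LLC cells, per the study's methods. The row of the Y-linked gene Uty, however, held at most 1 read in any library, and the sex of the mice was not tested. The Ctrl mice are labelled wild type, with nothing read here on whether they carried Cre. The study's methods give a single collection day, while the labels speak of different days, and no day is given per library.

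RefSeq rows held 29818454 to 30769916 reads in the Ctrl libraries and 27793301 to 29194187 in the NICeCA libraries. Hey1, a Notch target, measured 5.55, 2.69 and 2.78 RPKM in Ctrl libraries 1 to 3 and 6.05, 10.6 and 9.91 RPKM in NICeCA libraries 1 to 3, with adjusted p = 0.0412. The Notch targets Nrarp and Hes1 were not called (adjusted p = 0.0519 and 0.562), and Nrarp measured 16.5, 6.34 and 7.59 RPKM against 19.3, 21.1 and 21 RPKM. The Notch1 row, which covers the whole receptor, measured 14.3, 8.19 and 13.8 RPKM against 12.3, 13.6 and 12.6 RPKM. All 20 endothelial markers examined were detected, and their summed level was 356 to 872 RPKM in Ctrl and 787 to 984 RPKM in NICeCA. Macrophage markers summed to 7152 to 10112 RPKM in Ctrl and 5566 to 9512 RPKM in NICeCA in these libraries labelled as TECs. In bulk RNA fewer cells of a type cannot be told apart from less RNA per cell.

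Histone methyltransferases with a SET domain add methyl groups to lysines, and the KDM proteins remove them, either with a flavin cofactor or with iron, oxygen and 2-oxoglutarate. TET proteins use the same iron chemistry to oxidise 5-methylcytosine in DNA. Most SMARC proteins and several ARID proteins are subunits of SWI/SNF complexes. CHD proteins and the ISWI ATPases form other families of machines that slide, space or evict nucleosomes. In endothelial cells the SWI/SNF ATPase Smarca4 is known for its role in vessel development, and the NIC binds the DNA-bound factor RBPJ to switch on target genes.

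Of the 56 tested members, 15 were lower in NICeCA at an adjusted p under 0.05 (limma on log2(RPKM + 1), Benjamini-Hochberg over 12320 rows) and 0 were higher. That is 26.8% of the tested members, while 7.68% of all rows tested were called lower and 5.88% higher. The median log2 fold change (NICeCA minus Ctrl) was -0.27 over the members and -0.05 over all rows, and 43 members had a negative value against 13 with a positive one. In 28 members every NICeCA library lay below every Ctrl library, which held for 24.4% of all rows, and in 2 members, Setd3 and Kdm3a, every NICeCA library lay above, which held for 16.5% of all rows. At an unadjusted p under 0.05 limma gave 25 members (44.6%) lower and 1 higher, Kdm3a, against 21.1% of all rows lower and 14.4% higher. With limma voom on the recovered reads 13 members were called lower and 0 higher, against 793 of all rows lower and 967 higher.

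The count varied with the libraries that entered the fit. Without NICeCA library 1 or without NICeCA library 2 limma called 0 members lower, with 20 and 19 at an unadjusted p under 0.05, and of all 12320 rows 14 and 1 were then called lower. The number called lower was 8 without Ctrl library 1, 4 without Ctrl library 2, 9 without Ctrl library 3 and 13 without NICeCA library 3, beside 536, 137, 748 and 832 of all 12320 rows. All 15 members kept a negative log2 fold change in each of these 6 fits. That sign was fixed in advance, because every NICeCA library of these 15 lay below every Ctrl library. The median over all tested members stayed between -0.30 and -0.22.

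**Figure D1:**
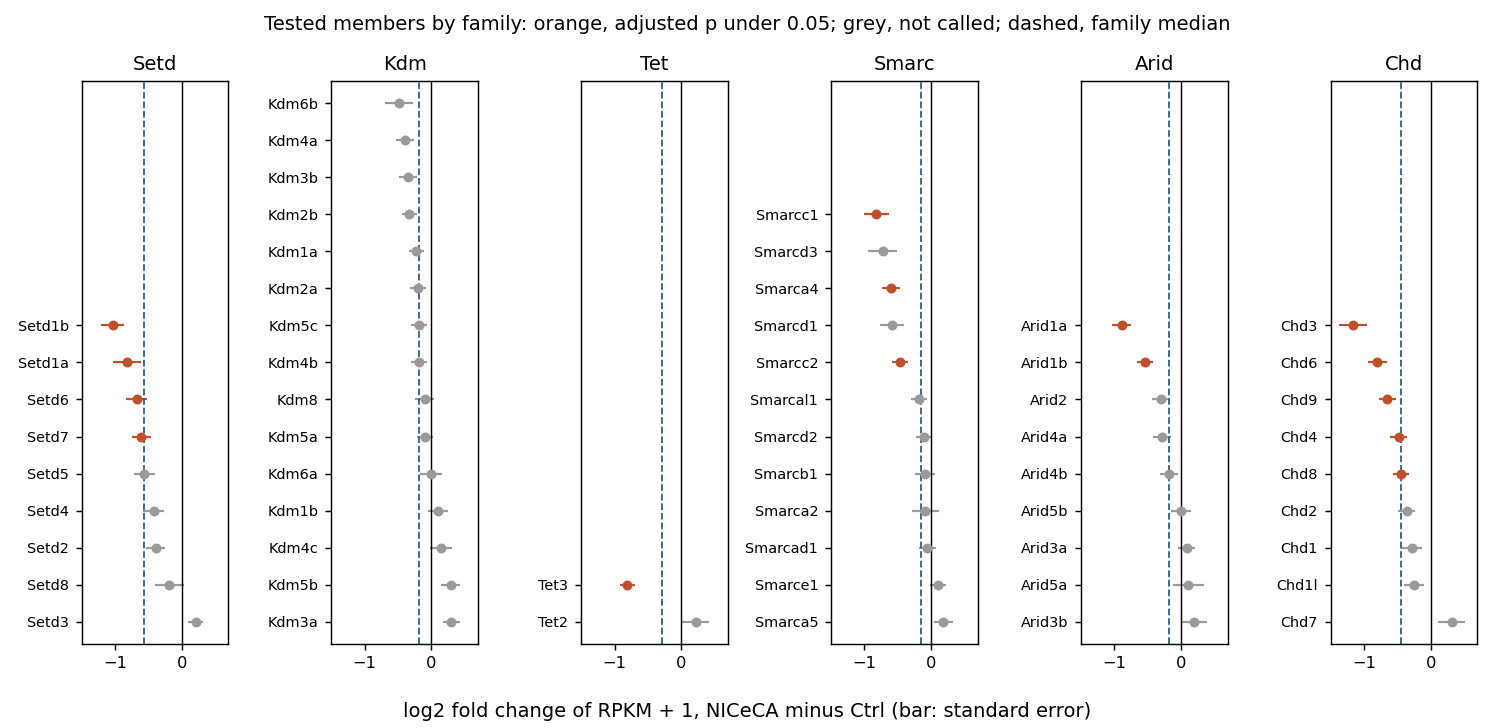
Log2 fold change of log2(RPKM + 1), NICeCA minus Ctrl, of the 56 tested members in 6 panels by family. Points are the fitted values, bars their standard errors from the limma fit over 3 Ctrl and 3 NICeCA libraries, and dashed lines the family medians. The 15 orange points are the members called lower, and the Kdm panel holds none.

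The Setd family had the lowest median, -0.56 over 9 tested members, of which 8 had negative values. Of the 9, 4 (44.4%) were called lower, against 7.68% of all rows and 18.1% of all rows of 4615 bases and above. The median row length of the family was 5931 bases. Setd1a and Setd1b are the catalytic subunits of the complexes that deposit most H3K4 trimethylation at promoters. Setd1b measured 3.91, 5.32 and 3.76 RPKM in Ctrl libraries 1 to 3 and 1.14, 1.75 and 1.92 RPKM in NICeCA libraries 1 to 3. Setd1a measured 6.92, 10.7 and 6.82 RPKM and 3.49, 3.49 and 5.49 RPKM in the same order. Neither gene's groups overlapped, and the log2 fold changes were -1.04 ± 0.18 (SE, adjusted p = 0.0206) for Setd1b and -0.82 ± 0.21 (adjusted p = 0.0437) for Setd1a. Setd7, which monomethylates H3K4 and many other proteins, went from 10.6, 12.5 and 11.8 RPKM to 6.37, 6.95 and 8.84 RPKM, without overlap, at a log2 fold change of -0.60 ± 0.14 (adjusted p = 0.0381).

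Setd6, which methylates the NF-kB subunit RelA, has the shortest row of the called members, with 1669 bases. Its levels were 6.64, 8.52 and 6.61 RPKM in Ctrl and 4.42, 3.31 and 4.81 RPKM in NICeCA. The NICeCA libraries all lay below the Ctrl libraries, at a log2 fold change of -0.68 ± 0.16 (adjusted p = 0.0373). Setd5 and Setd2 were not called, with log2 fold changes of -0.56 ± 0.16 (adjusted p = 0.0524) and -0.39 ± 0.14 (adjusted p = 0.102), although the groups of both did not overlap. Setd2 is the enzyme of H3K36 trimethylation. Setd3, which methylates a histidine of actin and not a histone, was the exception in direction with 22.5, 23.4 and 25.6 RPKM in Ctrl and 28.8, 28.2 and 26.3 RPKM in NICeCA, a log2 fold change of 0.21 ± 0.11 (adjusted p = 0.220).

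The Kmt2 genes under older symbols include further H3K4 methyltransferases. Kmt2a and Kmt2b act with menin, and Kmt2c and Kmt2d act at enhancers. Mll2, the row of Kmt2d with a length of 19827 bases, measured 19.1, 24.3 and 20.7 RPKM in Ctrl and 5.06, 7.37 and 9.20 RPKM in NICeCA, 33.8% of the Ctrl mean. Mll1, the row of Kmt2a with 16439 bases, measured 10.2, 13.7 and 11.6 RPKM and 2.95, 4.30 and 5.22 RPKM. The highest NICeCA library was below the lowest Ctrl library for both, with log2 fold changes of -1.47 ± 0.20 (adjusted p = 0.0111) and -1.33 ± 0.19 (adjusted p = 0.0136). Wbp7, the row of Kmt2b, was also called, from 10.4 ± 2.12 (SD, n = 3) to 4.98 ± 0.820 RPKM, at a log2 fold change of -0.92 ± 0.17 (adjusted p = 0.0229). Mll3 (-0.40 ± 0.17, adjusted p = 0.136) and Mll5 (-0.38 ± 0.16, adjusted p = 0.135) were not called and their groups overlapped, and neither was Jhdm1d (0.29 ± 0.25, adjusted p = 0.436). On the opposite strand, the Jhdm1d row shares 11693 bases of its span with 4930599N23Rik (mean of 8.06 RPKM) and the Mll5 row 874 bases with Srpk2, and it is not known whether reads were counted by strand.

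**Figure D2:**
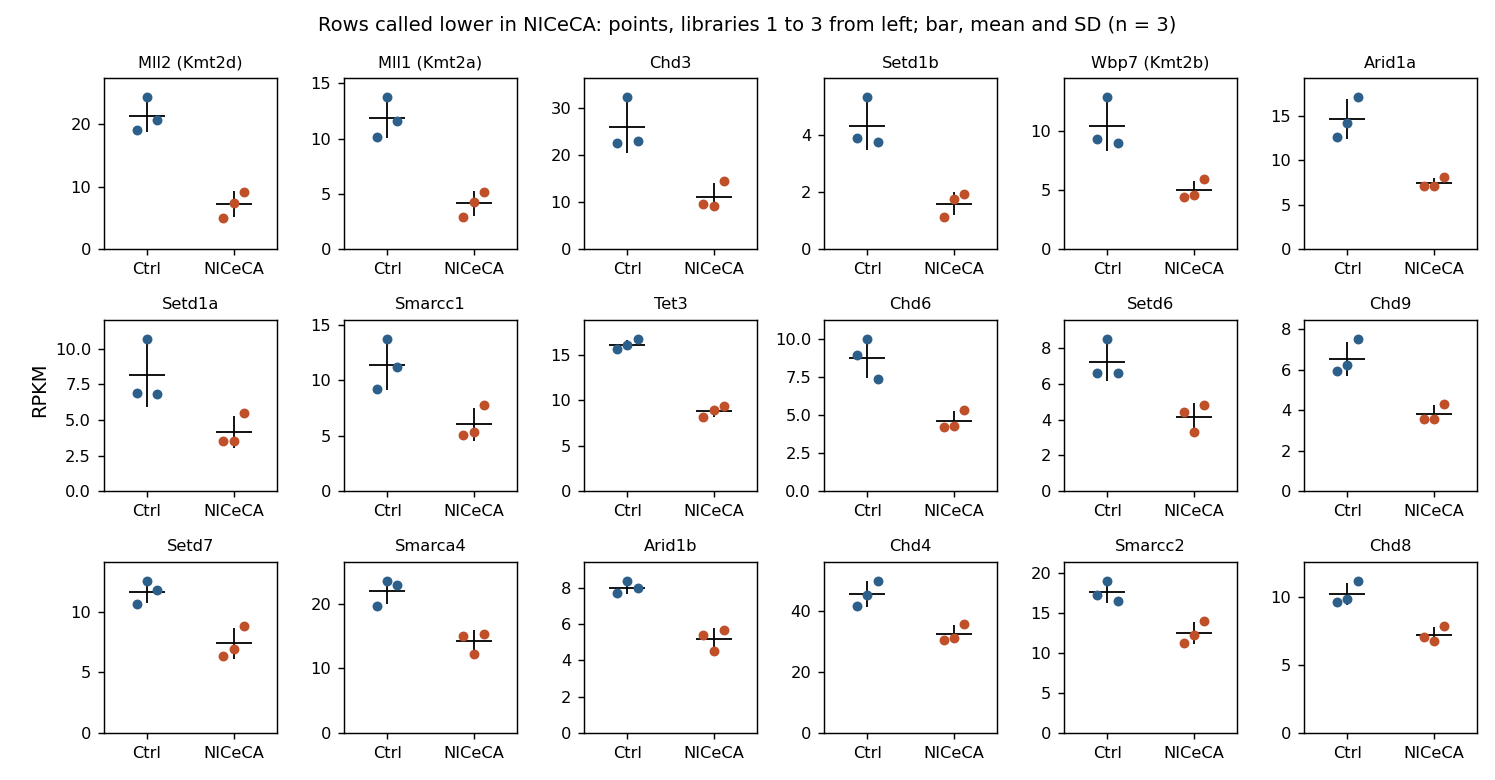
RPKM in each library, on an axis from 0, for the 15 members and the 3 Kmt2 rows called lower in NICeCA, ordered by log2 fold change. Blue points are Ctrl libraries 1 to 3 and orange points NICeCA libraries 1 to 3 from left to right, with the mean and SD in black, and the groups do not overlap in any panel.

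Among the Kdm genes, 0 of 15 tested members were called in either direction by limma and by limma voom, beside the shares of 7.68% and 5.88% of all rows. At an unadjusted p under 0.05 limma gave 3 of them (20%) lower and 1 (6.7%) higher, a share lower that is close to the 21.1% of all rows. The family median was -0.19, with 11 negative and 4 positive values. Kdm6a and Kdm6b remove methyl groups from H3K27. Kdm6b, the signal-induced member of the pair, measured 10.6, 10.4 and 17.3 RPKM in Ctrl and 7.0, 8.75 and 10.1 RPKM in NICeCA. It had the lowest value of the family, -0.49 ± 0.21 (adjusted p = 0.144), and Ctrl library 3 stood above the other 2 Ctrl libraries. Kdm6a measured 11.2, 7.31 and 11.4 RPKM and 10.2, 9.50 and 9.55 RPKM, with groups that overlapped and a log2 fold change of -0.0067 ± 0.17 (adjusted p = 0.984).

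Kdm3a, an H3K9 demethylase that low oxygen is known to induce, had the highest value of the family. It measured 10.5, 10.4 and 13.1 RPKM in Ctrl and 13.3, 14.1 and 15 RPKM in NICeCA, so that the lowest NICeCA library lay just above the highest Ctrl library, and its log2 fold change was 0.30 ± 0.13 (adjusted p = 0.139). Kdm5b, an H3K4 demethylase, measured 6.67, 6.12 and 8.66 RPKM and 8.80, 8.49 and 9.35 RPKM with a log2 fold change of 0.29 ± 0.14 (adjusted p = 0.182), and its groups overlapped through Ctrl library 3. Kdm1a, the flavin-dependent H3K4 demethylase, measured 14.9 ± 0.617 RPKM in Ctrl and 12.5 ± 0.848 RPKM in NICeCA, a log2 fold change of -0.23 ± 0.11 (adjusted p = 0.179), without overlap. The rows of Kdm1b and Kdm5a share 513 and 271 bases of their spans with Dek and Ccdc77 on the opposite strand.

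Tet2 and Tet3 had values of opposite sign, and Tet1 was below the level tested. Tet3 measured 15.7, 16.1 and 16.8 RPKM in Ctrl and 8.18, 8.94 and 9.37 RPKM in NICeCA, the lowest adjusted p among the members (0.0118) at a log2 fold change of -0.81 ± 0.11. The 3 libraries of each group lay close together and the groups were far from overlapping. Tet2 measured 7.65, 6.53 and 11.9 RPKM and 9.87, 9.07 and 11 RPKM, with every NICeCA value inside the Ctrl range and a log2 fold change of 0.22 ± 0.20 (adjusted p = 0.468). The ratio of Tet2 to Tet3 within a library, which does not depend on how that library was scaled, was 0.489, 0.406 and 0.709 in Ctrl and 1.21, 1.01 and 1.18 in NICeCA. Tet3 was thus the more abundant per length in each Ctrl library, and both were near equal or Tet2 was higher in each NICeCA library.

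The stretches before the starts of Tet2 and Tet3 are shown because CpG sites, whose methyl groups these enzymes oxidise, differ between these promoters. Each line gives 150 bases directly before the RefSeq start (build GRCm38.p6), 5′ to 3′, with CG in capitals.
Tet2, chr3:133544391-133544540, minus strand: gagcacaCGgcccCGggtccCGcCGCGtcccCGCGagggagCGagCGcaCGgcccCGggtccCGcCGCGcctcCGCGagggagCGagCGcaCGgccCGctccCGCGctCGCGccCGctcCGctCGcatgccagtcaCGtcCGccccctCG
Tet3, chr6:83441679-83441828, minus strand: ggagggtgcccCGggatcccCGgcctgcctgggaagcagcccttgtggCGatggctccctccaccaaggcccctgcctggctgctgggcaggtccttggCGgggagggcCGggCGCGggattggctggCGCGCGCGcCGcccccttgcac
The Tet2 stretch held 30 CG sites and the Tet3 stretch 12. RefSeq promoter windows, from 250 bases before to 50 after a start, were matched for 46 members with 59 windows. Of the 59, 51 (86.4%) had an observed to expected CpG ratio above 0.6, against 35.8% of all 32851 windows. All windows were taken whatever the expression of their gene, while most members reached the level tested. The ratio was 1.17 for the Tet2 window and 0.576, below that cut, for the Tet3 window.

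The Chd family, most of whose proteins read histone tails with paired chromodomains, held 5 of the 15 calls among 9 tested members. That is 55.6% of the 9, against 7.68% of all rows called lower and 18.1% of all rows of 4615 bases and above. The family median was -0.45, at a median row length of 8190 bases. Chd3 and Chd4 are alternative ATPases of the NuRD complex, which couples remodeling to histone deacetylation. Chd3 measured 22.6, 32.2 and 23.0 RPKM in Ctrl and 9.61, 9.08 and 14.5 RPKM in NICeCA. Its log2 fold change on the log2(RPKM + 1) scale was the lowest of all members, -1.17 ± 0.21 (adjusted p = 0.0223). As a share of the Ctrl mean RPKM, Setd1b was lower, with 37.0% against 42.7% for Chd3. Chd4, the most abundant member per length, measured 41.6, 45.3 and 49.8 RPKM and 30.3, 31.3 and 35.7 RPKM, a log2 fold change of -0.48 ± 0.13 (adjusted p = 0.0476). The groups were separate for both Chd3 and Chd4, and the Chd4 value was the nearer to 0. Chd4 was called in 5 of 20 alternative fits and in none without 1 library.

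Chd6, Chd7, Chd8 and Chd9 form the subfamily with additional carboxy-terminal domains. Chd6 went from 9.0, 10.0 and 7.39 RPKM to 4.2, 4.29 and 5.37 RPKM (-0.80 ± 0.15, adjusted p = 0.0237) and Chd9 from 5.92, 6.23 and 7.51 RPKM to 3.56, 3.56 and 4.31 RPKM (-0.65 ± 0.13, adjusted p = 0.0298). Chd8, a regulator of beta-catenin targets, went from 9.62, 9.81 and 11.1 RPKM to 7.02, 6.74 and 7.87 RPKM (-0.45 ± 0.12, adjusted p = 0.0461), and its span holds Snord8 on the same strand. Chd8 was called in 4 of 20 alternative fits and in none without 1 library. The groups of Chd6, Chd8 and Chd9 were separate. Chd7, the gene of CHARGE syndrome, was the highest of the members with 12.7, 10.5 and 15.9 RPKM in Ctrl and 14.2, 14.3 and 20.9 RPKM in NICeCA, a log2 fold change of 0.31 ± 0.20 (adjusted p = 0.288), and its groups overlapped because NICeCA library 3 alone lay above all Ctrl libraries. Chd2 (-0.36 ± 0.12, adjusted p = 0.0854), whose span shares 1949 bases with 1810026B05Rik on the same strand, Chd1 and Chd1l were not called.

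The promoter of Chd9 is shown because it is the promoter of a called member that holds GTGGGAA, the letters of the core motif of RBPJ, on either strand. The line gives 150 bases before a RefSeq start of the gene (GRCm38.p6) with these letters in capitals, 108 bases before the start.
Chd9, chr8:90828685-90828834, plus strand: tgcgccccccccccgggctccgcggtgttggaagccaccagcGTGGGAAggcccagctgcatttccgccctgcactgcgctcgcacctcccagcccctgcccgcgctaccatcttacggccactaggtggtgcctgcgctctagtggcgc
Of the 59 member windows 2 (3.39%) held these letters, the other being that of Chd1l, against 6.38% of all windows. CACGTG, the E-box bound by MYC and related factors, was in 2 member windows (3.39%), those of Kdm4c and Kdm6a, against 7.15% of all windows. Such a match is a run of letters and not a measured binding site.

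SWI/SNF complexes are built around 1 of 2 ATPases, Smarca4 or Smarca2. Smarca4 measured 19.6, 23.6 and 22.9 RPKM in Ctrl and 15.1, 12.2 and 15.3 RPKM in NICeCA, without overlap, at a log2 fold change of -0.60 ± 0.14 (adjusted p = 0.0356). Smarca2 measured 7.28, 3.76 and 6.10 RPKM and 4.96, 5.72 and 4.86 RPKM, with overlap, at -0.084 ± 0.20 (adjusted p = 0.793). Of the DNA-binding subunits of the canonical complex, Arid1a went from 12.6, 14.2 and 17 RPKM to 7.07, 7.08 and 8.08 RPKM, 50.6% of the Ctrl mean (-0.89 ± 0.14, adjusted p = 0.0174). Arid1b went from 7.70, 8.38 and 7.97 RPKM to 5.43, 4.52 and 5.66 RPKM (-0.54 ± 0.12, adjusted p = 0.0346). Neither pair of groups overlapped. Arid2, which defines the polybromo form of the complex, was not called (-0.30 ± 0.13, adjusted p = 0.129), although its groups were separate as well.

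The scaffold subunits Smarcc1 and Smarcc2 were both called, Smarcc2 in 2 of 20 alternative fits and in none without 1 library. Smarcc1 measured 9.20, 13.7 and 11.2 RPKM in Ctrl and 5.05, 5.30 and 7.74 RPKM in NICeCA (-0.82 ± 0.19, adjusted p = 0.0373), and Smarcc2 measured 17.2, 19.0 and 16.5 RPKM and 11.2, 12.3 and 14.0 RPKM (-0.47 ± 0.13, adjusted p = 0.0481). The core subunit Smarcb1 was not called, with 17.6 ± 2.77 RPKM against 16.3 ± 1.15 RPKM (-0.091 ± 0.14, adjusted p = 0.672), and neither was Smarce1 (0.10 ± 0.12, adjusted p = 0.586). Of the 3 alternative Smarcd subunits, Smarcd3 and Smarcd1 had log2 fold changes of -0.72 ± 0.22 (adjusted p = 0.0603) and -0.58 ± 0.18 (adjusted p = 0.0617), and Smarcd2, the most abundant, of -0.11 ± 0.11 (adjusted p = 0.511). The Smarcd3 and Smarcd1 groups did not overlap, and none of the 3 was called.

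Outside SWI/SNF, Smarca5, the main ISWI ATPase, measured 14.4, 12.6 and 17.8 RPKM in Ctrl and 17.3, 15.7 and 17.6 RPKM in NICeCA, with overlap, at a log2 fold change of 0.18 ± 0.15 (adjusted p = 0.400). A pseudogene row of the same gene, Smarca5-ps, was at 0.115 ± 0.0458 RPKM in Ctrl, and reads could be divided between the pair in counting. The fork-repair helicase Smarcal1 and the remodeler Smarcad1 had values of -0.18 ± 0.11 (adjusted p = 0.287) and -0.059 ± 0.13 (adjusted p = 0.764). The ARID proteins that are not SWI/SNF subunits were not called. Arid4a and Arid4b, which belong to Sin3 deacetylase complexes, had values of -0.28 ± 0.13 and -0.18 ± 0.13. Arid3a, Arid3b, Arid5a and Arid5b lay between 0.01 and 0.20, the highest being Arid3b.

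The 6 members not tested were Arid3c, Chd5, Kdm4d, Smarca1, Smarca5-ps and Tet1. Chd5, the highest of them, measured 0.526 ± 0.282 RPKM in Ctrl and 0.481 ± 0.164 RPKM in NICeCA, and Setd4, the lowest of the tested members, 1.67 ± 0.430 and 0.984 ± 0.0722 RPKM. Chd5, a NuRD ATPase of neurons, Smarca1, the other ISWI ATPase, and Tet1 were thus far below their paralogs in both groups.

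The ratio of paralogs within a library was taken for 7 pairs, and 4 pairs had separate groups. On the log2 scale the ratio of Kmt2c to Kmt2d was -1.30, -1.97 and -1.03 in Ctrl and 0.09, -0.39 and -0.57 in NICeCA, a difference of 1.14. The difference was 1.12 for Tet2 to Tet3, -0.75 for Chd3 to Chd4 and -0.34 for Arid1a to Arid1b. For Smarca4 to Smarca2 (-0.54), Smarcd1 to Smarcd2 (-0.58) and Kdm6a to Kdm6b (0.53) the groups overlapped. Some of these differences moved by over 1.5 times without 1 library. Smarca4 to Smarca2 was -0.22 without Ctrl library 2 and -0.83 without Ctrl library 1, Smarcd1 to Smarcd2 was -0.35 without Ctrl library 2, Kdm6a to Kdm6b was 0.35 without NICeCA library 1, and Arid1a to Arid1b was -0.22 without Ctrl library 3. No test of the ratios was run, and an exact permutation of 3 against 3 libraries could not give a two-sided p below 0.10.

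**Figure D3:**
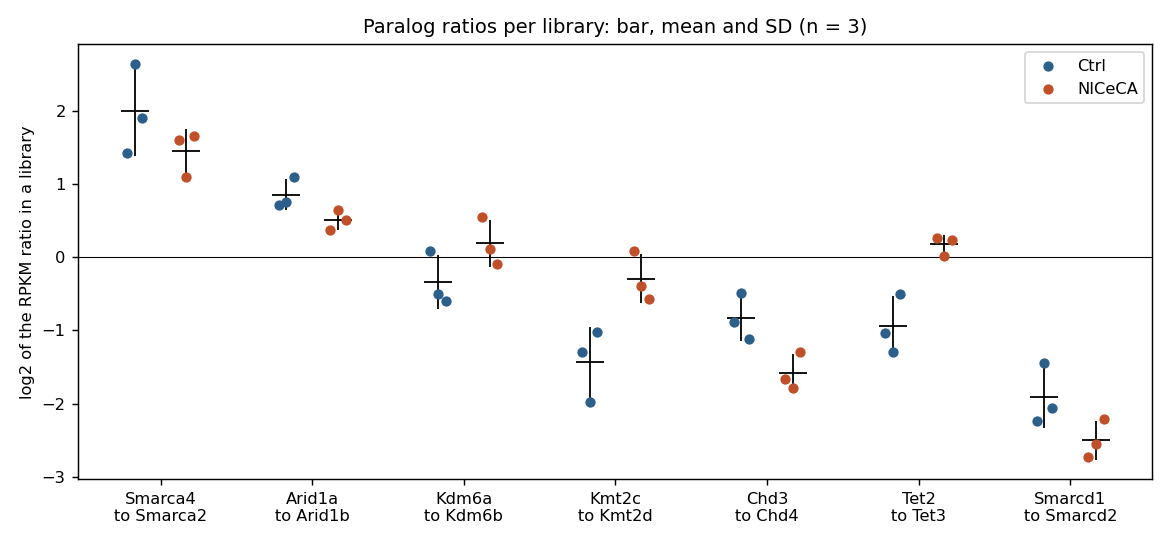
Log2 of the RPKM ratio of 7 paralog pairs in each library, with blue points for Ctrl libraries 1 to 3, orange points for NICeCA libraries 1 to 3, and the mean and SD of each group in black. The groups are separate for Arid1a to Arid1b, Kmt2c to Kmt2d, Chd3 to Chd4 and Tet2 to Tet3, and the Tet2 to Tet3 values lie below 0 in Ctrl and above 0 in NICeCA.

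Row length moved with the comparison. The tested members had a median length of 5856 bases against 2733 bases for all rows, and 40 of the 56 were in the fifth of rows with the greatest length (4615 bases and above). There 18.1% of all 2463 rows were called lower and 14 of the 40 members (35%), with medians of -0.24 and -0.34. In the fifth with the shortest rows, which held no member, 2.39% of rows were called lower and 10.3% higher. The median deviation of the longest minus that of the shortest of these classes, on the log2 scale, was 0.19, 0.11 and 0.25 in Ctrl libraries 1 to 3 and -0.28, -0.19 and -0.09 in NICeCA libraries 1 to 3, so the libraries were separated by group in this measure too. Transcript GC content also varied with the log2 fold change, with a correlation of -0.19 across 12177 rows and -0.38 across the 56 members, while length (log2) gave -0.21 and -0.19. These values are across genes of the same 6 libraries, which are not independent replicates.

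When the length trend of each library was removed before the fit, 4 members were called lower, Arid1a, Chd3, Setd6 and Tet3, and 3 were called higher, Chd7, Kdm3a and Kdm5b, beside 1.67% and 4.79% of all rows. The median over the members was then -0.08. Arid1a had a log2 fold change of -0.59 (adjusted p = 0.0300), Chd3 -0.90 (adjusted p = 0.0478), Setd6 -0.72 (adjusted p = 0.0428) and Tet3 -0.42 (adjusted p = 0.0459). The value of Chd7 moved from 0.31 to 0.71 (adjusted p = 0.0459), and Kdm3a and Kdm5b reached 0.47 and 0.51 (adjusted p = 0.0450 and 0.0451). Mll1 (-0.82, adjusted p = 0.0374) and Mll2 (-0.89, adjusted p = 0.0340) were still called lower, Wbp7 was no longer called (-0.61, adjusted p = 0.0684), and Mll3 changed sign to 0.12 (adjusted p = 0.553). The Kdm median moved from -0.19 to 0.03 and the Setd median from -0.56 to -0.34. The Chd median moved from -0.45 to -0.18, with 1 Chd member called lower and 1 higher.

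Removal of the GC trend, an alternative chosen after seeing the data, left 13 members lower and 0 higher, beside 5.98% and 9.03% of all rows, and 12 of these 13 were among the 15. Of the members, 3 were higher at an unadjusted p under 0.05 in that limma fit. Removal of both trends, also chosen afterwards, left 1 member lower, Setd6 (-0.63, adjusted p = 0.0461), and 2 higher, Chd7 (0.73, adjusted p = 0.0468) and Kdm5b (0.51, adjusted p = 0.0450), beside 1.18% and 4.29% of all rows. Chd3 (-0.79), Tet3 (-0.37) and Arid1a (-0.46) then had adjusted p of 0.0533, 0.0533 and 0.0559. All 15 members called lower on the deposited scale still had negative values.

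**Figure D4:**
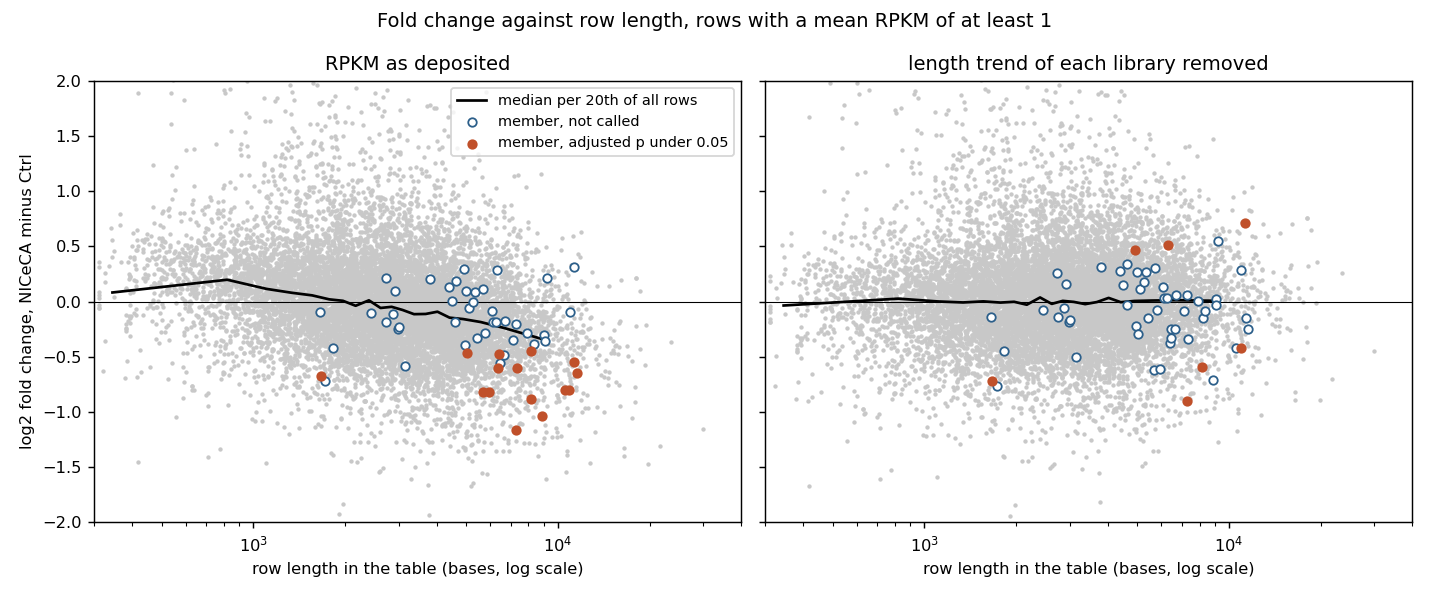
Log2 fold change (NICeCA minus Ctrl) against row length in bases on a log axis, for the deposited RPKM on the left and after removal of each library's length trend on the right, with both axes limited to the range of most rows. Grey points are all rows tested, the black line their median along length, open circles members that were not called and orange points members called. The black line falls with length on the left, where 14 of the 15 orange points are at 4615 bases and above, and is near 0 on the right, where 4 orange points are below 0 and 3 above.

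Marker RNA of several cell types differed between the groups as well. Of 9 neutrophil markers tested 7 were called higher, and the list summed to 161 to 325 RPKM in Ctrl and 683 to 1759 RPKM in NICeCA. Of 11 macrophage markers 4 were called higher, while 6 had negative and 5 positive values, with a median of -0.17. Of 20 endothelial markers 3 were called higher and all 20 had positive values, and of 10 lymphocyte markers 0 were called. Of 11 fibroblast and pericyte markers 3 were called lower and 2 higher, with sums of 358 to 591 RPKM in Ctrl and 219 to 439 RPKM in NICeCA. Of 10 epithelial markers 8 were below a mean RPKM of 1 and Krt18 was called lower. Of 8 erythroid and platelet markers Pf4 was called higher, while 6 had negative and 2 positive values, with a median of -0.38. No listed marker was at 0 in all libraries. Of 4 nuclear retained RNAs Neat1 and Kcnq1ot1 were called lower, and the list summed to 1733 to 1911 RPKM in Ctrl and 982 to 1453 RPKM in NICeCA. With the mean of the endothelial markers as a covariate limma called 0 of the 12320 rows in either direction, with 944 lower and 1167 higher at an unadjusted p under 0.05 of which 15 and 0 were members, and all 15 members kept negative values in that fit. The part of these cell types and of the nuclear RNAs in the member values was not tested.

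Other genes of the same machinery were described from lists of related proteins, whose counts stand against 7.68% of all rows called lower and 5.88% called higher. Among COMPASS subunits and partners, which carry the H3K4 methyltransferases, 3 of 15 were called lower (Hcfc1, Men1 and Ncoa6) with a median of -0.24. Hcfc1, a host cell factor that bridges transcription factors to these complexes, had -0.82 ± 0.17 (adjusted p = 0.0301), and Men1, which encodes menin, had -0.52 ± 0.13 (adjusted p = 0.0442). Among other histone methyltransferases 3 of 20 were called lower with a median of -0.29, namely the H3K36 enzyme Ash1l (-0.69 ± 0.14), the H3K9 enzyme Ehmt1 (-0.56 ± 0.12) and the H4K20 enzyme Suv420h2 (-0.67 ± 0.11). Among other JmjC proteins 1 of 11 was called lower, Phf2 (-0.49 ± 0.12), with a median of -0.17.

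Among 21 Polycomb genes 7 were called lower and 1 higher with a median of -0.26. Cbx6, a chromodomain subunit, measured 18.8, 29.8 and 17.4 RPKM in Ctrl and 6.78, 8.03 and 10.8 RPKM in NICeCA (-1.25 ± 0.23, adjusted p = 0.0239), and its groups were separate. Asxl1, Asxl2, Cbx2, Cbx7, Pcgf2 and Phc1 were the others called lower. Pcgf5, a subunit of a variant PRC1 complex, was the only gene of these related lists called higher, with 5.97, 8.32 and 9.29 RPKM in Ctrl and 14.4, 13.1 and 14.4 RPKM in NICeCA (0.77 ± 0.16, adjusted p = 0.0305).

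Of 15 further SWI/SNF subunits 2 were called lower, Gltscr1 (-0.75 ± 0.15) and Gltscr1l (-0.51 ± 0.13), with a median of -0.31. Of 14 ISWI partners and INO80 family members 5 were called lower with a median of -0.32. They were Baz1b, Baz2a and Bptf, which are partners of the ISWI ATPases, and Ep400 and Ino80, which are ATPases themselves, and Bptf went from 13.3 ± 1.10 RPKM to 7.37 ± 0.836 RPKM (-0.77 ± 0.13, adjusted p = 0.0195). Of 11 NuRD partners 1 was called lower, Gatad2b (-0.54 ± 0.15), and the median of -0.08 was near that of all rows. In the list of DNA methylation and repair genes, the de novo methyltransferase Dnmt3a was called lower (-0.60 ± 0.11, adjusted p = 0.0223), and the median over the 12 genes tested was -0.27. After removal of the length trend the only genes of these 8 lists called lower were Suv420h2, Cbx6, Cbx7 and Gltscr1, and Pcgf5 was still called higher.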

How the data were processed

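Bulk RNA of CD31-selected TECs from 3 Ctrl and 3 NICeCA LLC tumors was analysed, each library being labelled as its own replicate. Per the study's methods, rRNA was depleted and paired reads were sequenced by Illumina, and the submitters' processing notes name TopHat2 and mm9, while the row positions of 61 members overlapped their GRCm38.p6 RefSeq genes. The authors deposited RPKM values per row, normalized to row length and library reads, in a table of 23473 RefSeq rows and 33353 FANTOM3 rows. The counting tool and its strand setting were not given in the sources used here. All values under 1000 reads came out as whole reads within 0.05 of a read, so depth is known.

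RefSeq rows with a mean RPKM of at least 1 (12320) were fitted on log2(RPKM + 1) using limma (version 3.58.1, R version 4.3.3; linear model with trended empirical Bayes moderation, two-sided, Benjamini-Hochberg over all rows, threshold 0.05), a scale that understates changes of low rows, and p-values measure only the spread between these samples. Length and GC trends were removed per library by lowess (span 0.3), with GC taken from the GENCODE transcript nearest in length (98.8% of rows). Named were every called member, the highest and lowest of each family, a listed set of 25 paralogs and subunits, and the called genes of the lists, of which 1 is not reported here. Wbp7, Mll5, Jhdm1d and Uty, and the further members given values, were added after their values were seen. The members and the lists of related genes, cell type markers and nuclear RNAs were chosen with earlier results of these data known. Alternatives were the replicate block, each library left out, other scalings, filters, pseudocounts and fits, and the removal of the trends. The fit was tested on simulated data, where it called 45.9% of 98 planted 2-fold changes and 85.6% of 97 planted 4-fold changes. In that test 7 unchanged genes were called. A row that was not called is therefore not shown to be unchanged.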

Additional observations from a re-analysis of the deposited data

How the results depend on the processing

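Of 20 alternatives (19 for Setd1b, which was under the minimum of 5 RPKM), none gave a member called lower in the report a positive log2 fold change. For the fits without 1 library this was fixed in advance, because the groups of these members did not overlap. The sign was also fixed with the replicate block, either other filter, the pseudocount of 0.1, eBayes without trend and FANTOM3 rows. Those settings leave the fold change of a row, or the order of its libraries, as it was. Arid1a and Tet3 were called in 15 of them, Chd3 in 14, Setd1b in 12, Chd6, Chd9 and Setd6 in 11, Smarca4 in 10, Arid1b and Smarcc1 in 9, Setd7 in 8, Setd1a in 7, Chd4 in 5, Chd8 in 4 and Smarcc2 in 2. The number of members called lower (15) was 4 with the replicate block, 8 under quantile normalization, 2 without a filter on low rows, 4 with the length trend removed (3 higher, median -0.081), 0 with the length trend removed and the replicate block (median -0.081, with 9 lower and 5 higher at an unadjusted p under 0.05 in limma), 0 with the endothelial marker covariate, and 1 with the length and GC trends removed (2 higher, median -0.082). Leaving out 1 library gave 0 to 13 lower, 0 higher in each, and medians of -0.30 to -0.22. It was 11 under trimmed mean scaling and 13 to 15 with a minimum of 5 RPKM, a pseudocount of 0.1, eBayes without trend, limma voom, FANTOM3 rows or the GC trend removed. Across all rows the length trend moved the split from 946 lower and 725 higher to 206 and 590, trimmed mean scaling gave 598 and 1066, and the GC trend 737 and 1112. Both GC alternatives were chosen after seeing the data, and why the counts moved was not tested.

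Values that changed sign belonged to rows that were not called in the report. Of the 56 members 43 were negative on the deposited scale, 33 with the length trend removed, 40 with the GC trend removed and 35 with both removed. With the length trend removed, with or without the replicate block, Arid2 was 0.026, Kdm6a 0.17, Mll3 0.12 and Smarca2 0.13, and without the block Arid4b was 0.034, Smarcal1 0.061 and Smarcad1 0.12. With the length and GC trends removed Kdm6a was 0.022, Mll3 0.086, Smarca2 0.15, Smarcal1 0.085 and Smarcd2 0.077, and with the GC trend removed Smarcb1 was 0.017 and Smarcd2 0.039. Under quantile normalization Kdm6a was 0.059 and Smarca2 0.041, under trimmed mean scaling Kdm6a was 0.085, Smarca2 0.00042 and Smarcb1 0.0036, under limma voom Kdm6a was 0.064, and with the endothelial marker covariate Smarcb1 was 0.16. Leaving out 1 library gave -0.20 to 0.093 for Kdm6a, -0.31 to 0.086 for Smarca2 and -0.21 to 0.0092 for Smarcb1. The paralog differences kept their sign without any 1 library, from -0.83 to -0.22 for Smarca4 to Smarca2 and from 0.94 to 1.34 for Tet2 to Tet3.

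The study's methods speak of 3 pairs of mice without saying which libraries they are. Replicate numbers were not taken as pairs, since deviations of same-numbered libraries correlated at 0.12, -0.34 and -0.18, and the replicate block is given for that reason only here. It kept Arid1a, Chd3, Setd1b and Tet3. The called Kmt2 rows had 1365 reads or more in each library.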
